A study of Mus musculus with 574 samples.

Results

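Cells of the developing ventral midbrain of mouse embryos at E13.5 (E for embryonic day) were compared in pools of 100. There were 12 such pools, 6 of GFP positive cells and 6 of GFP negative cells. They were chosen by their labelled stage and GFP class from a series of 574 samples, the rest of which are pools of E10.5 and single cells of E10.5 to E13.5. Every embryo of both classes was on a C57BL/6 background and heterozygous for Lmx1a-EGFP, a reporter that makes green fluorescent protein (GFP) under the control of the Lmx1a locus. The GFP negative pools therefore come from the same genotype and not from animals without the reporter. RNA was sequenced with Smart-seq2, which copies full-length polyadenylated transcripts from small amounts of RNA. The series concerns how differentiating midbrain dopamine neurons relate to neurons of the subthalamic nucleus. No embryo or litter is named in the labels, so a p-value here reflects the spread among the pools alone, and that spread may be technical.

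Lmx1a is a LIM homeodomain transcription factor of the midbrain floor plate, the ventral midline of the neural tube from which dopamine neurons arise. Together with Foxa2 and Lmx1b it specifies dopamine progenitors, and the neurons they produce switch on Nr4a2, Pitx3 and Th, the gene of the enzyme that makes the dopamine precursor L-DOPA. Lmx1a is also expressed farther forward, in the diencephalic floor, where neurons of the subthalamic nucleus arise and express Barhl1. GABAergic, serotonergic, oculomotor and red nucleus neurons arise from neighbouring domains of the ventral neural tube.

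The promoters of 3 genes that separated the classes are shown first. Pitx3 and Barhl1 mark the dopamine and subthalamic lineages, and Fev had no RPKM above 0 in any GFP positive pool. Each is the 250 bases before the RefSeq start of the gene, 5′ to 3′ on the gene's strand, in GRCm38.p6. Capitals mark matches to CAGCTG (an E-box, bound by basic helix-loop-helix factors), TAATTA (a core bound by many homeodomain factors) and AGATAA or TGATAA (cores bound by GATA factors), searched on both strands.
Pitx3 promoter (chr19:46148326-46148575, minus strand): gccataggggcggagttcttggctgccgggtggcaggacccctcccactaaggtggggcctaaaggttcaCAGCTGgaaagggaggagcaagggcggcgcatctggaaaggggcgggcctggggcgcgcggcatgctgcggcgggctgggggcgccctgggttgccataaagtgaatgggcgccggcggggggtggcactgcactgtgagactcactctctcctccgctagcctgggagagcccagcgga
Barhl1 promoter (chr2:28916669-28916918, minus strand): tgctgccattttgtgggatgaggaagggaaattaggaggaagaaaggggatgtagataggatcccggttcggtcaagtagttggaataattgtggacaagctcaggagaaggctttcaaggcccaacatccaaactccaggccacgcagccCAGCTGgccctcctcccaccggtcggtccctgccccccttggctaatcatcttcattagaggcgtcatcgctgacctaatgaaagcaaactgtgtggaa
Fev promoter (chr1:74885409-74885658, minus strand): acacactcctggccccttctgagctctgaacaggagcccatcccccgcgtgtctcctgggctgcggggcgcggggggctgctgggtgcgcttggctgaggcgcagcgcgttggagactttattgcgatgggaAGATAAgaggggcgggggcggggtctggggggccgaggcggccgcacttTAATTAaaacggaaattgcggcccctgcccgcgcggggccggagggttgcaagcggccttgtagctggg
The same window of Lmx1a, Nr4a2, Th, Gata2, Gata3, Gad2, Dlx1, Sst, Cartpt, Tcf7l2, Msx1 and Foxa1 held none of these letters. Of the promoters looked at, only those shown held a match. The shares that follow were counted in a longer window, which also held bases just after the start. Across the table, CAGCTG was present in 17.1% of 316 promoters of genes higher in GFP positive pools, in 16.8% of 345 promoters of genes lower in them and in 14.6% of 9005 promoters of all genes tested. TAATTA was present in 3.80%, 3.19% and 2.299% of the same promoters, and AGATAA or TGATAA in 8.54%, 10.7% and 9.08%. These shares describe letters in a window and not binding.

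The deposited values are RPKM, reads per kilobase of transcript per M reads. The implied depth was 3.87 to 7.33 M reads per pool (median 6.02) if the smallest step between low values stands for 1 read, and 1.93 to 3.66 M if it stands for 0.5 of a read. GFP negative replicate 5 was the shallowest. Between 13313 and 14183 genes reached an RPKM of 1 in a pool. Pearson correlations of log2(RPKM + 1) across genes, which are not independent replicates, were 0.898 to 0.920 between GFP positive pools, 0.902 to 0.925 between GFP negative pools and 0.868 to 0.901 between the classes. No columns were identical. In GFP negative replicate 3 the red blood cell genes took 3.13% of all RPKM and in GFP negative replicate 5 they took 2.69%, against at most 0.0182% in each of the other 10 pools. Counts are therefore also given without those 2 pools.

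The reporter and the gene that drives it followed the labels. EGFP was at 51.1 to 80.3 RPKM (median 58.8) in the GFP positive pools and at 0 in each of the 6 GFP negative pools. The two-sided exact permutation test gave p = 0.0021645, the smallest p that 6 against 6 allows. Lmx1a, at chr1:167689237-167848741 of GRCm38, had 46.3 to 67.6 RPKM (median 56.4) among GFP positive pools, against 0.494 to 3.88 RPKM (median 2.99) among GFP negative pools. The classes did not overlap (a log2 difference of 4.07 ± 0.27, adjusted p = 1.06e-07). Here and in what follows, log2 differences are GFP positive minus GFP negative on the log2(RPKM + 1) scale with the standard error of the fit. This scale understates the change of low genes. Adjusted p-values are from limma with Benjamini-Hochberg adjustment over all genes tested (n = 6 pools each). Since the cells were sorted on this reporter, both genes check the sort and are not a finding. Lmx1a reads were low but not absent in all 6 GFP negative pools.

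All 4 marker genes of the dopamine and subthalamic lineages were higher in GFP positive pools, and none of their values overlapped between the classes. Pitx3, a homeodomain factor that dopamine neurons need for their survival, at chr19:46135685-46148326, was at 49.2 to 127.3 RPKM (median 75.03) among GFP positive pools. Every GFP negative pool had it at 0, so it has no fold (adjusted p = 1.06e-09). A gene at 0 throughout 1 class was tested only if all 6 other pools reached 1 RPKM. The lack of overlap of Pitx3 was therefore fixed in advance. Nr4a2, a nuclear receptor at chr2:57106830-57124003 required for dopamine neurons to form, had 279 to 421 RPKM (median 342) among GFP positive pools, against 11.9 to 28.04 RPKM (median 17.1) among GFP negative pools (a log2 difference of 4.14 ± 0.20, adjusted p = 2.72e-09). Th, the tyrosine hydroxylase gene at chr7:142892752-142931128, had 124.96 to 291 RPKM (median 179.8) among GFP positive pools, against 0 to 20.4 RPKM (median 8.43) among GFP negative pools (a log2 difference of 4.57 ± 0.57, adjusted p = 7.68e-05). Barhl1, a homeodomain factor of the subthalamic and mammillary lineages at chr2:28907679-28916668, had 168.7 to 212 RPKM (median 194) among GFP positive pools, against 3.50 to 31.6 RPKM (median 18.8) among GFP negative pools (a log2 difference of 3.56 ± 0.35, adjusted p = 8.73e-06). Of the 4, Barhl1 had the narrowest range among GFP positive pools, and Th was listed at 0 in 1 GFP negative pool and above 0 in the other 5. In pools, fewer cells of a type and less RNA per cell cannot be told apart, here and in every comparison that follows.

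**Figure D1:**
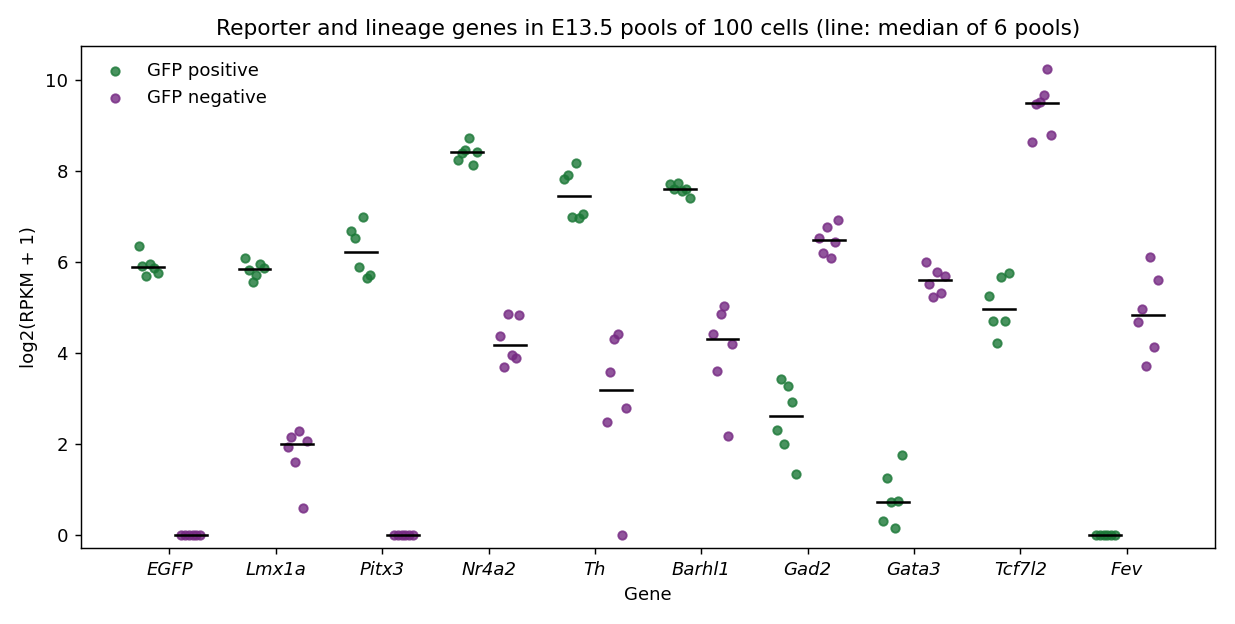
Level of the reporter and 9 lineage genes, as log2(RPKM + 1), in each of 6 GFP positive and 6 GFP negative pools of E13.5; a point is a pool and a line the median. In none of the 10 do the values of the classes overlap, with EGFP and Pitx3 at 0 in all GFP negative pools and Fev at 0 in all GFP positive pools. For Pitx3 and Fev the filter on genes tested fixed the lack of overlap in advance.

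A small share of all genes was called, and a gene that was not called is not shown to be unchanged. Of 13674 genes tested, 938 (6.86%) passed an adjusted p of 0.05, of which 443 (3.24%) were higher in GFP positive pools and 495 (3.62%) were lower. At least 2-fold differences were found for 263 genes higher (1.92%) and 250 genes lower (1.83%). The 6 values of each class did not overlap at all for 614 genes (4.49%), 279 higher (2.04%) and 335 lower (2.45%). A gene under 1 RPKM in all pools of 1 class was tested only if all 6 other pools reached 1 RPKM. For such genes the lack of overlap was fixed by this filter. In each of the 12 fits that leave out 1 pool, 301 of the genes called higher and 309 of those called lower were called again. Without both GFP negative pools that hold globin, 323 genes were called higher and 271 lower, with 299 and 256 of the same genes, in a fit with fewer pools. The median log2 difference of all genes tested was -0.03. Of the genes called in the lists that follow, 24 lost their call in at least 1 of the 12 fits. The lists were chosen with earlier results of these data known, so the share called in a list is a description and not a test. Some genes are in more than 1 list and are counted in each.

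**Figure D2:**
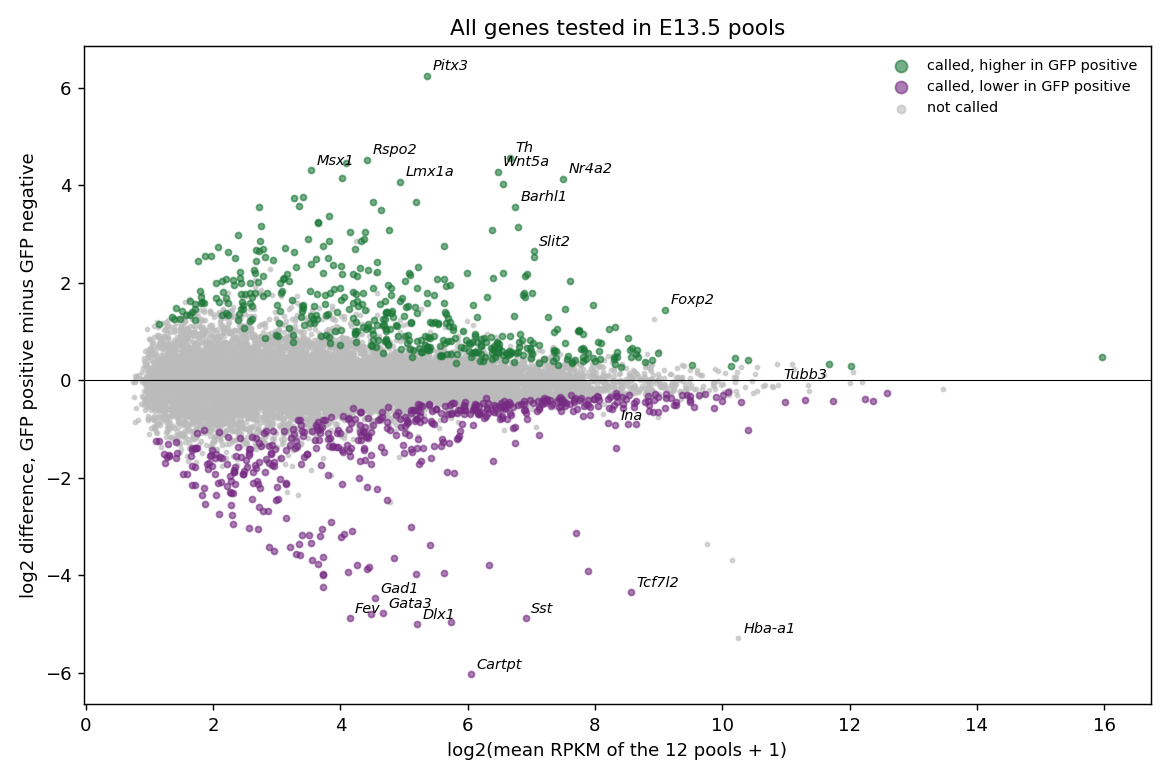
Log2 difference, GFP positive minus GFP negative, of each of the 13674 genes tested against its mean level over the 12 pools, with called genes in colour; the differences of genes listed at 0 in 1 class, such as Pitx3 and Fev, depend on the added pseudocount of 1. Called genes lie on both sides (443 higher, 495 lower), and Hba-a1, a globin gene, is far below 0 without being called.

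The floor plate and LIM factors were mostly higher. Of 7 tested, 5 were higher and 0 lower, and all 5 were called in every fit that leaves out 1 pool (71.4% called, median log2 difference 3.08). Lmx1a, on whose reporter the cells were sorted, is 1 of the 5 and is not a finding. Msx1, a homeodomain factor that Lmx1a induces in dopamine progenitors, had 15.1 to 32.4 RPKM (median 19.2) among GFP positive pools, against 0 to 0.638 RPKM (median 0) among GFP negative pools (a log2 difference of 4.31 ± 0.27, adjusted p = 7.64e-08). Only 1 GFP negative pool was above 0 for Msx1. Lmx1b, the paralogue of Lmx1a, had 54.999 to 81.2 RPKM (median 65.5) among GFP positive pools, against 2.03 to 12.49 RPKM (median 3.37) among GFP negative pools (a log2 difference of 3.65 ± 0.33, adjusted p = 2.99e-06). Foxa1, a forkhead factor of the floor plate, had 33.4 to 63.02 RPKM (median 45.96) among GFP positive pools, against 2.91 to 7.93 RPKM (median 4.79) among GFP negative pools (a log2 difference of 3.08 ± 0.24, adjusted p = 5.52e-07). Neither Lmx1b nor Foxa1 overlapped between the classes. Its relative Foxa2 differed less, with 48.99 to 86.5 RPKM (median 72.5) among GFP positive pools, against 19.2 to 45.1 RPKM (median 26.7) among GFP negative pools (a log2 difference of 1.35 ± 0.20, adjusted p = 0.000416). Every GFP negative pool had Foxa2 above 19 RPKM. Otx2, which marks the midbrain and forebrain, was not called and had 62.7 to 146.7 RPKM (median 93.3) among GFP positive pools, against 43.7 to 110.1 RPKM (median 71.5) among GFP negative pools (a log2 difference of 0.43 ± 0.26, adjusted p = 0.395). Msx2 was too low to be tested and had 0.475 to 4.85 RPKM among GFP positive pools, with every GFP negative pool at 0. Nkx6-2, a homeodomain factor, was not tested either and lay in the opposite direction without overlap, with 0 to 0.263 RPKM (median 0.125) among GFP positive pools, against 0.520 to 20.7 RPKM (median 13.99) among GFP negative pools.

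Of 12 dopamine neuron factors tested, 8 were higher and 0 lower, and all 8 were called in every fit that leaves out 1 pool (66.7% called, median log2 difference 1.37). Beside Pitx3 and Nr4a2, Ebf2, a helix-loop-helix factor of young neurons, had 50.1 to 94.5 RPKM (median 73.3) among GFP positive pools, against 7.42 to 21.4 RPKM (median 19.8) among GFP negative pools (a log2 difference of 2.09 ± 0.23, adjusted p = 2.84e-05). Klhl1, a kelch-like protein of neurons, had 19.2 to 37.97 RPKM (median 25.99) among GFP positive pools, against 4.04 to 9.70 RPKM (median 7.31) among GFP negative pools (a log2 difference of 1.80 ± 0.24, adjusted p = 0.000158). For Ebf2 and Klhl1 the classes did not overlap. Bnc2, a zinc-finger protein, had 5.01 to 57.2 RPKM (median 21.3) among GFP positive pools, against 0 to 5.26 RPKM (median 0.814) among GFP negative pools (a log2 difference of 3.37 ± 0.53, adjusted p = 0.000787), and here the lowest GFP positive pool lay below the highest GFP negative pool. En1, which dopamine neurons need to survive, had 20.5 to 35.9 RPKM (median 30.4) among GFP positive pools, against 7.71 to 16.3 RPKM (median 12.9) among GFP negative pools (a log2 difference of 1.15 ± 0.20, adjusted p = 0.00205). Sox6, known from dopamine neurons of the substantia nigra, was low in both classes, with 3.48 to 10.54 RPKM (median 5.25) among GFP positive pools, against 0.509 to 2.85 RPKM (median 0.992) among GFP negative pools (a log2 difference of 1.59 ± 0.35, adjusted p = 0.00986). En1 and Sox6 did not overlap between the classes.

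Of 9 genes of dopamine synthesis, storage and uptake tested, 4 were higher and 0 lower (44.4% called, median log2 difference 1.53), and the 4 form a chain from synthesis to reuptake. Th is given above. Ddc, which turns L-DOPA into dopamine, had 119.6 to 267 RPKM (median 187) among GFP positive pools, against 19.5 to 70.4 RPKM (median 47.8) among GFP negative pools (a log2 difference of 2.15 ± 0.26, adjusted p = 5.8e-05). Slc18a2, the transporter that loads dopamine into vesicles, had 30.5 to 84.9 RPKM (median 42.8) among GFP positive pools, against 5.16 to 22.8 RPKM (median 17.9) among GFP negative pools (a log2 difference of 1.53 ± 0.31, adjusted p = 0.00596). Ddc and Slc18a2 serve serotonin neurons too, and both stayed above 5 RPKM in every GFP negative pool. Slc6a3, the dopamine reuptake transporter, had 5.88 to 65.05 RPKM (median 27.8) among GFP positive pools, against 0 to 1.19 RPKM (median 0) among GFP negative pools (a log2 difference of 4.46 ± 0.48, adjusted p = 2.04e-05). It was above 0 in 1 of 6 GFP negative pools, and its GFP positive values spread more widely than those of Nr4a2. Gch1, which starts the synthesis of the cofactor of tyrosine hydroxylase, was not called and overlapped, with 7.14 to 22.3 RPKM (median 10.6) among GFP positive pools, against 0 to 11.98 RPKM (median 3.94) among GFP negative pools (a log2 difference of 1.64 ± 0.50, adjusted p = 0.0635). Without GFP negative replicate 6 it was called (adjusted p = 0.0187). Qdpr, which recycles the same cofactor, was not called (a log2 difference of -0.22 ± 0.15, adjusted p = 0.446). Aldh1a1, found in ventral dopamine neurons, was too low to be tested, with 0 to 8.94 RPKM (median 0.532) among GFP positive pools, against 0 to 0.172 RPKM (median 0) among GFP negative pools.

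The subthalamic lineage list was called in full, but its members were chosen with earlier results of these data known. Lmx1b is counted in the floor plate list too. Of 9 genes tested, 8 were higher and 1, Nkx2-1, was lower, and all 9 were called in every fit that leaves out 1 pool (100% called, median log2 difference 2.20). Foxp2, a forkhead factor of several projection neuron types, had the highest RPKM of the list, with 662 to 916 RPKM (median 824) among GFP positive pools, against 227 to 368 RPKM (median 297) among GFP negative pools (a log2 difference of 1.44 ± 0.11, adjusted p = 5.52e-07). Its relative Foxp1 had 124.3 to 181 RPKM (median 149.04) among GFP positive pools, against 71.2 to 111.6 RPKM (median 95.7) among GFP negative pools (a log2 difference of 0.67 ± 0.14, adjusted p = 0.00754). Neither overlapped, but both were above 70 RPKM in every GFP negative pool. Barhl2, the paralogue of Barhl1, had 15.5 to 28.6 RPKM (median 19.6) among GFP positive pools, against 0.897 to 7.24 RPKM (median 4.60) among GFP negative pools (a log2 difference of 2.20 ± 0.32, adjusted p = 0.000377). Dbx1, a progenitor homeodomain factor, had 41.1 to 158.7 RPKM (median 99.4) among GFP positive pools, against 6.86 to 48.8 RPKM (median 22.1) among GFP negative pools (a log2 difference of 2.20 ± 0.41, adjusted p = 0.00311), with overlap. Wnt8b, a signalling ligand of the diencephalon, had 25.7 to 109.7 RPKM (median 56.3) among GFP positive pools, against 7.25 to 18.9 RPKM (median 8.41) among GFP negative pools (a log2 difference of 2.31 ± 0.31, adjusted p = 0.000161). Barhl2 and Wnt8b did not overlap. Slc17a6, the vesicular glutamate transporter of subthalamic and many other neurons, had 64.3 to 116.9 RPKM (median 75.7) among GFP positive pools, against 38.1 to 52.02 RPKM (median 46.9) among GFP negative pools (a log2 difference of 0.77 ± 0.15, adjusted p = 0.00366). The call of Slc17a6 was lost when the E10.5 pools shared the fit (adjusted p = 0.178). Nkx2-1, which marks the hypothalamus, had 0.458 to 8.17 RPKM (median 3.04) among GFP positive pools, against 42.9 to 68.95 RPKM (median 49.8) among GFP negative pools (a log2 difference of -3.66 ± 0.34, adjusted p = 3.66e-06).

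**Figure D3:**
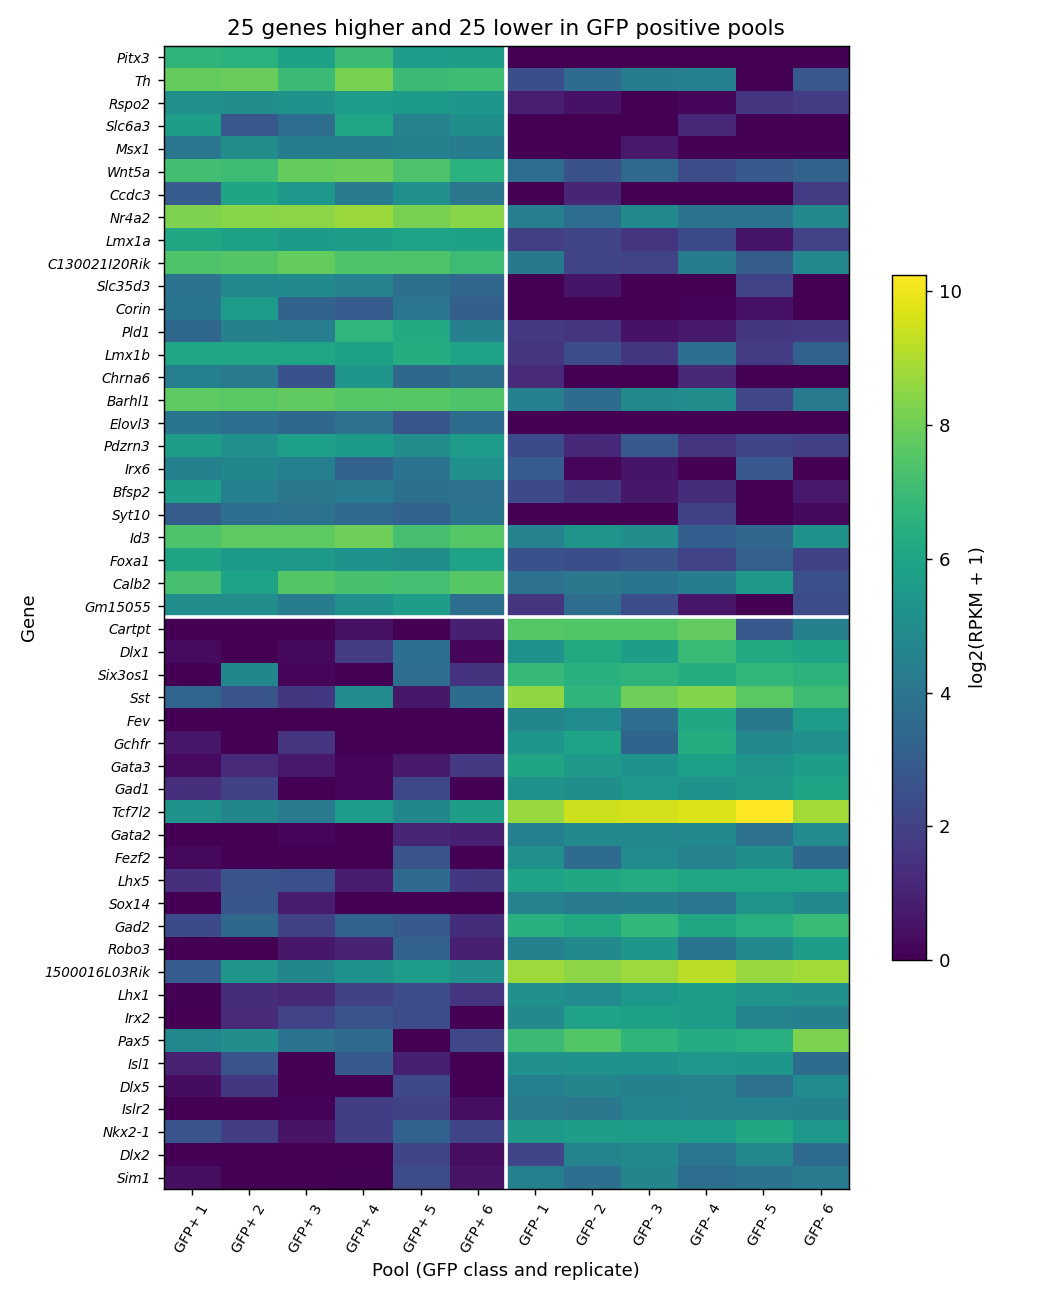
Level, as log2(RPKM + 1) in colour, of the 25 genes called higher and the 25 called lower with the largest differences, in each GFP positive (GFP+) and GFP negative (GFP-) pool. The upper 25 rows are bright in GFP positive pools and the lower 25 in GFP negative pools, and GFP positive replicate 5 is brighter than the other GFP positive pools in Dlx1, Dlx2, Fezf2, Robo3 and Sim1.

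Of the other genes among the 25 with the largest higher values, Rspo2 is in the list of Wnt modulators. The rest given here are in no list. Rspo2, a secreted protein that strengthens Wnt signals, had 32.3 to 49.5 RPKM (median 38.5) among GFP positive pools, against 0 to 2.54 RPKM (median 0.608) among GFP negative pools (a log2 difference of 4.52 ± 0.32, adjusted p = 2.81e-07). C130021I20Rik, annotated at chr2:33641193-33646354 next to Lmx1b (chr2:33560965-33640511) on the opposite strand, had 128.3 to 223 RPKM (median 172.002) among GFP positive pools, against 3.31 to 26.6 RPKM (median 11.9) among GFP negative pools (a log2 difference of 4.02 ± 0.40, adjusted p = 8.07e-06). Their annotated spans do not overlap, and both were higher. Ccdc3, a secreted coiled-coil protein, had 6.90 to 62.1 RPKM (median 26.1) among GFP positive pools, against 0 to 2.54 RPKM (median 0) among GFP negative pools (a log2 difference of 4.16 ± 0.48, adjusted p = 4.25e-05). Corin, a membrane protease used to select floor plate cells, had 6.89 to 49.6 RPKM (median 11.7) among GFP positive pools, against 0 to 0.4 RPKM (median 0) among GFP negative pools (a log2 difference of 3.74 ± 0.40, adjusted p = 2.04e-05), and GFP positive replicate 2 alone was above 16 RPKM. Slc35d3, of the nucleotide sugar transporter family, had 9.499 to 27.8 RPKM (median 18.1) among GFP positive pools, against 0 to 3.34 RPKM (median 0) among GFP negative pools (a log2 difference of 3.75 ± 0.40, adjusted p = 2.02e-05). Most GFP negative pools had Slc35d3 at 0. Pld1, a phospholipase D, had 9.73 to 106.1 RPKM (median 21.1) among GFP positive pools, against 0.404 to 2.26 RPKM (median 1.99) among GFP negative pools (a log2 difference of 3.66 ± 0.48, adjusted p = 0.000142). Pdzrn3, a ubiquitin ligase, had 32.2 to 54.1 RPKM (median 47.6) among GFP positive pools, against 1.25 to 6.23 RPKM (median 3.13) among GFP negative pools (a log2 difference of 3.49 ± 0.27, adjusted p = 5.52e-07). Irx6, an Iroquois homeodomain factor, had 8.44 to 35.4 RPKM (median 21.3) among GFP positive pools, against 0 to 6.89 RPKM (median 0.288) among GFP negative pools (a log2 difference of 3.25 ± 0.55, adjusted p = 0.00131). Here the lowest GFP positive pool lay just above the highest GFP negative one. Bfsp2, a filament protein known from the lens, had 12.7 to 50.9 RPKM (median 16.3) among GFP positive pools, against 0 to 3.80 RPKM (median 1.08) among GFP negative pools (a log2 difference of 3.23 ± 0.41, adjusted p = 8.56e-05). Syt10, a synaptotagmin, had 7.08 to 14.6 RPKM (median 11.4) among GFP positive pools, against 0 to 3.11 RPKM (median 0) among GFP negative pools (a log2 difference of 3.16 ± 0.37, adjusted p = 4.93e-05). Gm15055, a predicted gene, had 12.1 to 50.4 RPKM (median 31.4) among GFP positive pools, against 0 to 11.7 RPKM (median 3.02) among GFP negative pools (a log2 difference of 3.04 ± 0.52, adjusted p = 0.00148). For all of these the 6 values of each class were separate, which the choice of the 25 required.

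Elovl3, a fatty acid elongase, was at 5.66 to 14.8 RPKM (median 11.8) among GFP positive pools, with every GFP negative pool at 0 (adjusted p = 7.36e-07). It lies at chr19:46131897-46135694 on the plus strand, and its last exon overlaps that of Pitx3 on the minus strand. Smart-seq2 libraries do not mark the strand, so reads in the few shared bases cannot be told apart. How much of the Elovl3 level comes from them was not measured. Of the called genes, 4 were listed at 0 in every GFP negative pool: Pitx3, Elovl3, Gabrr3 (a GABA receptor subunit) and 1700084C01Rik. Another 5 had no RPKM above 0 in any GFP positive pool: Fev, C1ql2, Foxd2, Bsx and 9230102O04Rik. These genes were named after their values were seen, apart from Pitx3 and Fev, which are also in the gene lists. A gene at 0 throughout 1 class was tested only if all 6 pools of the other class reached an RPKM of 1. The lack of overlap of these genes was therefore fixed by the filter. The counts of 4 and 5 leave out genes that the filter dropped, such as Wnt1 and Chrnb3, which were near 0 in GFP negative pools.

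The GABAergic list, also chosen with earlier results known, moved in the opposite direction. All 17 genes tested were lower in GFP positive pools, with a median log2 difference of -3.77, and 16 were called in every fit that leaves out 1 pool (the exception was Zfpm1, with an adjusted p of 0.0577 without GFP negative replicate 4). Gad1, a glutamate decarboxylase that makes GABA, had 0 to 3.64 RPKM (median 0.882) among GFP positive pools, against 33.5 to 63.1 RPKM (median 40.6) among GFP negative pools (a log2 difference of -4.47 ± 0.40, adjusted p = 2.61e-06). Gad2, the second such enzyme, had 1.53 to 9.83 RPKM (median 5.21) among GFP positive pools, against 67.3 to 121.03 RPKM (median 88.3) among GFP negative pools (a log2 difference of -3.96 ± 0.31, adjusted p = 7.07e-07). Slc32a1, the vesicular GABA transporter, had 0.182 to 3.66 RPKM (median 0.844) among GFP positive pools, against 4.82 to 8.69 RPKM (median 6.73) among GFP negative pools (a log2 difference of -1.89 ± 0.33, adjusted p = 0.00188). Gad2 was low but above 0 in every GFP positive pool. Gata3, a zinc-finger factor of midbrain GABAergic neurons, had 0.109 to 2.37 RPKM (median 0.654) among GFP positive pools, against 36.7 to 62.6 RPKM (median 47.96) among GFP negative pools (a log2 difference of -4.78 ± 0.28, adjusted p = 6.45e-08). Gata2, which acts upstream of it, had 0 to 1.13 RPKM (median 0.0538) among GFP positive pools, against 13.3 to 29.6 RPKM (median 26.6) among GFP negative pools (a log2 difference of -4.24 ± 0.30, adjusted p = 2.81e-07). Tal1, their helix-loop-helix partner, had 0 to 2.05 RPKM (median 0.0593) among GFP positive pools, against 5.69 to 18.1 RPKM (median 10.03) among GFP negative pools (a log2 difference of -3.06 ± 0.36, adjusted p = 4.27e-05). Sox14, an HMG factor of GABAergic neurons, had 0 to 5.65 RPKM (median 0) among GFP positive pools, against 15.1 to 38.4 RPKM (median 20.7) among GFP negative pools (a log2 difference of -3.96 ± 0.44, adjusted p = 2.75e-05). Lhx1, a LIM homeodomain factor of these neurons, had 0.0383 to 4.32 RPKM (median 1.77) among GFP positive pools, against 29.8 to 52.8 RPKM (median 36.8) among GFP negative pools (a log2 difference of -3.87 ± 0.33, adjusted p = 1.6e-06). Its paralogue Lhx5 had 0.718 to 10.4 RPKM (median 3.43) among GFP positive pools, against 59.7 to 79.03 RPKM (median 64.4) among GFP negative pools (a log2 difference of -3.98 ± 0.35, adjusted p = 2.61e-06). For each of these genes the highest GFP positive pool lay below the lowest GFP negative pool. Nkx2-2, a homeodomain factor of progenitors lateral to the floor plate, had 0 to 6.19 RPKM (median 3.62) among GFP positive pools, against 9.01 to 53.6 RPKM (median 31.2) among GFP negative pools (a log2 difference of -3.08 ± 0.50, adjusted p = 0.000912).

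The distal-less factors of forebrain GABAergic neurons were lower too. Dlx1 had 0 to 12.48 RPKM (median 0.204) among GFP positive pools, against 36.5 to 120.9 RPKM (median 67.5) among GFP negative pools (a log2 difference of -5.00 ± 0.54, adjusted p = 2.04e-05). Dlx5 had 0 to 3.84 RPKM (median 0.132) among GFP positive pools, against 13.1 to 30.4 RPKM (median 21.6) among GFP negative pools (a log2 difference of -3.77 ± 0.41, adjusted p = 2.04e-05). Dlx2 had 0 to 3.47 RPKM (median 0) among GFP positive pools, against 3.47 to 29.2 RPKM (median 18.9) among GFP negative pools (a log2 difference of -3.58 ± 0.49, adjusted p = 0.000188). In Dlx1, 5 of 6 GFP positive pools were below 2.5 RPKM and GFP positive replicate 5 was at 12.48 RPKM. The same pool had the highest GFP positive value of Dlx2, 3.47 RPKM. Tal2, a relative of Tal1, had 0 to 4.37 RPKM (median 0.387) among GFP positive pools, against 3.52 to 14.2 RPKM (median 12.4) among GFP negative pools, and its highest GFP positive value was in that pool too. The 3 values stand above those of the other 5 GFP positive pools, and what set this pool apart was not tested.

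Peptide genes differed by member. Of 13 precursors tested, 2 were higher and 2 lower (30.8% called, median log2 difference -0.01). Cartpt, a hypothalamic and midbrain peptide precursor, had 0 to 0.872 RPKM (median 0) among GFP positive pools, against 6.20 to 218 RPKM (median 174.8) among GFP negative pools (a log2 difference of -6.03 ± 0.71, adjusted p = 4.6e-05). Sst, the somatostatin precursor of many GABAergic neurons, had 0.571 to 29.8 RPKM (median 7.20) among GFP positive pools, against 103.97 to 369 RPKM (median 224) among GFP negative pools (a log2 difference of -4.89 ± 0.55, adjusted p = 3.19e-05). Among GFP positive pools, Cartpt was above 0 in 2 and Sst in all 6. Cck, a peptide of many dopamine neurons, had 28.4 to 148.4 RPKM (median 68.8) among GFP positive pools, against 4.41 to 21.6 RPKM (median 11.8) among GFP negative pools (a log2 difference of 2.76 ± 0.40, adjusted p = 0.000318). Cbln1, a secreted synapse organiser, had 18.96 to 42.03 RPKM (median 34.8) among GFP positive pools, against 2.96 to 8.57 RPKM (median 5.47) among GFP negative pools (a log2 difference of 2.31 ± 0.27, adjusted p = 5.24e-05). Neither Cck nor Cbln1 overlapped. Among 6 calcium-binding proteins tested, 1 was higher and 1 lower (33.3% called, median -0.23). Calb2, calretinin, had 61.4 to 190.0 RPKM (median 150.8) among GFP positive pools, against 4.60 to 45.1 RPKM (median 15.3) among GFP negative pools (a log2 difference of 3.07 ± 0.38, adjusted p = 7.68e-05).

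Serotonergic genes were lower in GFP positive pools. Of 4 tested, 3 were lower and 0 higher (75% called, median log2 difference -3.55). Fev, the ETS factor that defines serotonin neurons, had no RPKM above 0 in any GFP positive pool, against 12.2 to 68.1 RPKM (median 27.7) among GFP negative pools (adjusted p = 4.37e-07). Gchfr, a regulator of the enzyme that starts synthesis of the hydroxylase cofactor, had 0 to 2.02 RPKM (median 0) among GFP positive pools, against 8.89 to 79.4 RPKM (median 37.6) among GFP negative pools (a log2 difference of -4.79 ± 0.45, adjusted p = 4.44e-06). It was above 0 in 2 GFP positive pools. Tph2, the tryptophan hydroxylase of serotonin neurons, had 0 to 2.28 RPKM (median 0) among GFP positive pools, against 0.517 to 17.9 RPKM (median 6.59) among GFP negative pools (a log2 difference of -2.31 ± 0.56, adjusted p = 0.0187). The serotonin transporter Slc6a4 was not tested and had 0 to 0.897 RPKM (median 0) among GFP positive pools, against 0 to 40.6 RPKM (median 5.79) among GFP negative pools. Tph2 was above 0 in 1 GFP positive pool, and its call was lost with no filter on low values (adjusted p = 0.0501).

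Of 7 glutamatergic, red nucleus and motor neuron genes tested, 1 (Slc17a6) was higher and 5 were lower (85.7% called, median log2 difference -2.13). Isl1, a LIM factor of motor neurons, had 0 to 6.54 RPKM (median 0.913) among GFP positive pools, against 11.2 to 43.02 RPKM (median 36.9) among GFP negative pools (a log2 difference of -3.79 ± 0.50, adjusted p = 0.000146). Pou4f1, a POU factor of the red nucleus, had 0.0928 to 8.01 RPKM (median 1.61) among GFP positive pools, against 6.23 to 27.8 RPKM (median 10.4) among GFP negative pools (a log2 difference of -2.13 ± 0.52, adjusted p = 0.0188). Its call was lost without GFP negative replicate 4 (adjusted p = 0.0503) and without both pools that hold globin (adjusted p = 0.0511). Sim1, a helix-loop-helix factor of the diencephalon and ventral spinal cord, had 0 to 4.06 RPKM (median 0.189) among GFP positive pools, against 11.9 to 24.4 RPKM (median 16.1) among GFP negative pools (a log2 difference of -3.55 ± 0.39, adjusted p = 2.2e-05).

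Regional genes outside the ventral midline were mostly lower. Of 11 genes of the diencephalon and hypothalamus tested, 3 were higher and 7 lower (90.9% called, median log2 difference -2.77). The 3 higher genes were Dbx1, Irx3 and Irx5. The call of Irx3 was lost in 9 of the 12 fits that leave out 1 pool (adjusted p up to 0.0744). Irx5, an Iroquois homeodomain factor, had 14.8 to 30.8 RPKM (median 20.2) among GFP positive pools, against 4.25 to 10.6 RPKM (median 8.10) among GFP negative pools (a log2 difference of 1.41 ± 0.27, adjusted p = 0.00341). Lhx9, a LIM factor of the diencephalon and dorsal midbrain, had 0 to 2.47 RPKM (median 0.477) among GFP positive pools, against 5.34 to 39.9 RPKM (median 14.3) among GFP negative pools (a log2 difference of -3.37 ± 0.42, adjusted p = 8.69e-05). Foxb1, a forkhead factor of the mammillary region, had 0.118 to 8.55 RPKM (median 2.09) among GFP positive pools, against 17.97 to 32.8 RPKM (median 21.8) among GFP negative pools (a log2 difference of -2.90 ± 0.39, adjusted p = 0.00016). Neither overlapped. All 3 forebrain genes tested were lower, Six3, Lhx2 and Emx2 (median -3.04), but Six3 and Lhx2 are also in the list of the diencephalon and hypothalamus. Six3 had 0 to 1.70 RPKM (median 0) among GFP positive pools, against 5.62 to 13.6 RPKM (median 8.81) among GFP negative pools (a log2 difference of -3.04 ± 0.33, adjusted p = 2.04e-05). Six3os1, which overlaps Six3 on the opposite strand, had 0 to 25.1 RPKM (median 0.954) among GFP positive pools, against 81.1 to 115.6 RPKM (median 98.2) among GFP negative pools (a log2 difference of -4.95 ± 0.68, adjusted p = 0.000198). Without strand, reads of the shared stretch cannot be told apart. Emx2 had 0 to 4.71 RPKM (median 0.986) among GFP positive pools, against 8.03 to 37.9 RPKM (median 20.5) among GFP negative pools (a log2 difference of -3.19 ± 0.47, adjusted p = 0.000404). Lhx2 had 0 to 0.902 RPKM (median 0) among GFP positive pools, against 3.63 to 14.4 RPKM (median 6.02) among GFP negative pools (a log2 difference of -2.77 ± 0.35, adjusted p = 8.69e-05). Fezf2, a zinc-finger factor of the forebrain, had 0 to 5.41 RPKM (median 0) among GFP positive pools, against 9.96 to 34.6 RPKM (median 26.04) among GFP negative pools (a log2 difference of -3.99 ± 0.48, adjusted p = 5.98e-05). It was above 0 in 2 GFP positive pools and did not overlap.

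Of 5 dorsal midbrain genes tested, 4 were lower and Barhl2 was higher (100% called, median log2 difference -3.17). Tcf7l2, a Wnt effector abundant in the thalamus and dorsal midbrain, at chr19:55741820-55933654, had 17.6 to 52.9 RPKM (median 31.1) among GFP positive pools, against 401 to 1214 RPKM (median 726) among GFP negative pools (a log2 difference of -4.35 ± 0.28, adjusted p = 1.06e-07). It was the most abundant of the 25 named lower genes and was not absent from GFP positive pools. Pax5, a paired-box factor of the midbrain-hindbrain boundary, had 0 to 31.6 RPKM (median 12.2) among GFP positive pools, against 78.8 to 299 RPKM (median 114.6) among GFP negative pools (a log2 difference of -3.80 ± 0.66, adjusted p = 0.00173). Its relative Pax8 had 0 to 6.25 RPKM (median 0.28) among GFP positive pools, against 4.88 to 25.3 RPKM (median 9.84) among GFP negative pools (a log2 difference of -2.67 ± 0.49, adjusted p = 0.00263). Meis2, a homeodomain cofactor, had 0.585 to 1.78 RPKM (median 1.32) among GFP positive pools, against 12.97 to 28.1 RPKM (median 17.2) among GFP negative pools (a log2 difference of -3.17 ± 0.27, adjusted p = 1.59e-06). Of these 3, Pax8 overlapped between the classes. Irx2, an Iroquois factor, had 0 to 5.35 RPKM (median 2.25) among GFP positive pools, against 20.8 to 59.6 RPKM (median 39.03) among GFP negative pools (a log2 difference of -3.83 ± 0.48, adjusted p = 7.84e-05). Of 3 hindbrain genes tested, 1 was lower (median -1.49). All 4 roof plate and choroid plexus genes tested were higher (median 3.26), but Lmx1a and Msx1 are also in the floor plate list. Lmx1a only checks the sort. The other 2 were Bmp7 and Folr1, a folate receptor with 2.79 to 30.5 RPKM (median 19.1) among GFP positive pools, against 0 to 6.81 RPKM (median 2.45) among GFP negative pools (a log2 difference of 2.38 ± 0.55, adjusted p = 0.0136). Folr1 overlapped between the classes, and its call was lost without both globin pools (adjusted p = 0.0668). Ttr, transthyretin of the choroid plexus, was too low to be tested, with 0 in all GFP positive pools, against 0 in all GFP negative pools. Robo3, a guidance receptor of commissural axons, had 0 to 8.35 RPKM (median 0.709) among GFP positive pools, against 14.9 to 51.1 RPKM (median 28.3) among GFP negative pools (a log2 difference of -3.93 ± 0.48, adjusted p = 6.2e-05). Islr2, an adhesion protein, had 0 to 2.98 RPKM (median 0.194) among GFP positive pools, against 15.9 to 23.3 RPKM (median 21.99) among GFP negative pools (a log2 difference of -3.69 ± 0.38, adjusted p = 1.27e-05). In both, every GFP positive pool lay below every GFP negative pool. 1500016L03Rik, an uncharacterised transcript, had 6.82 to 49.6 RPKM (median 36.4) among GFP positive pools, against 357 to 576 RPKM (median 427) among GFP negative pools (a log2 difference of -3.92 ± 0.33, adjusted p = 1.6e-06).

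**Figure D4:**
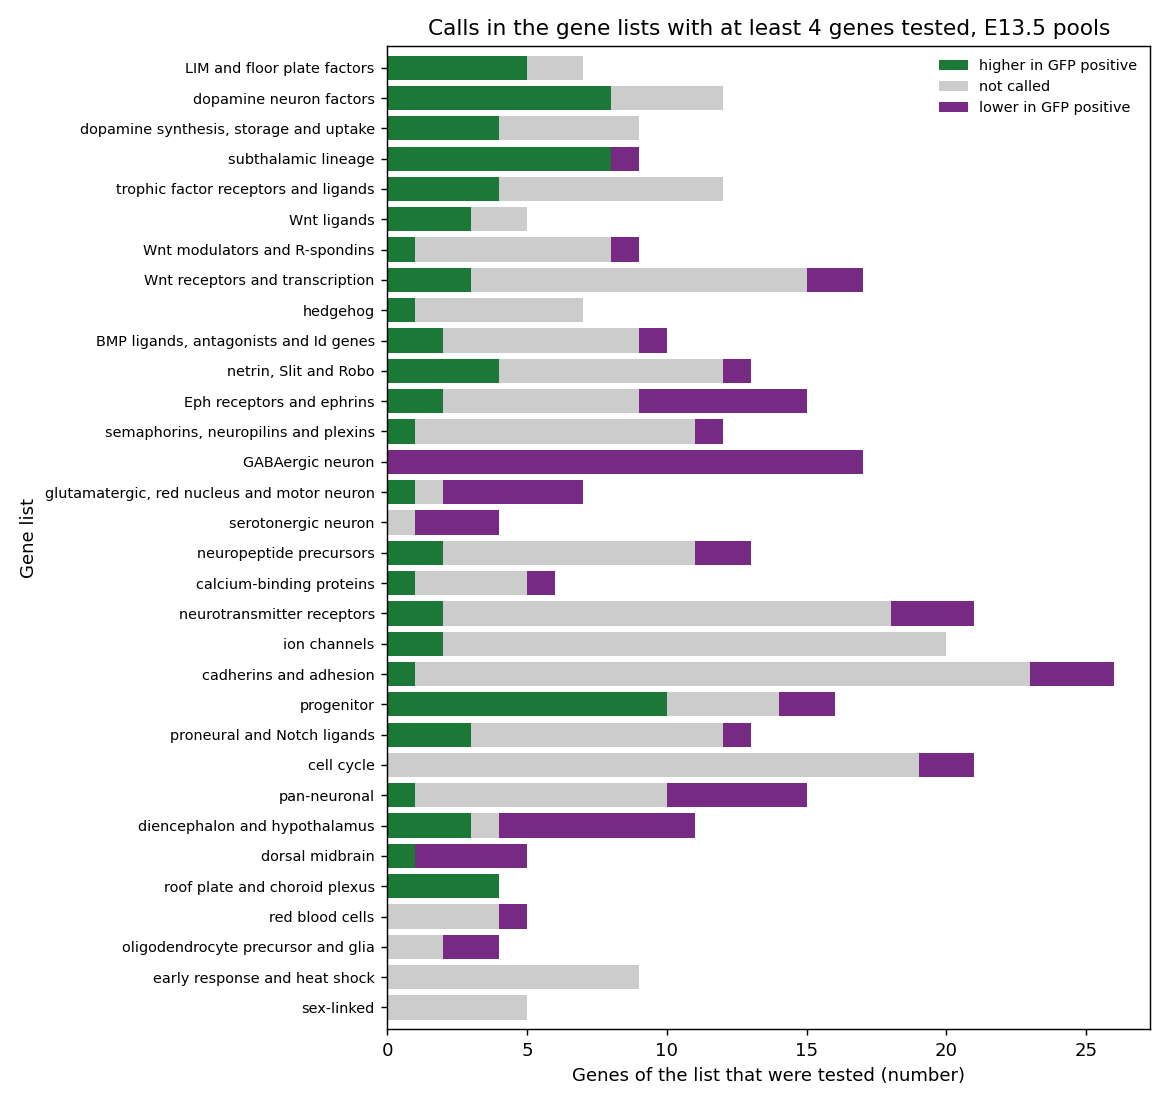
Number of genes called higher, not called and called lower in GFP positive pools, of those tested, for each gene list with at least 4 genes tested. The 17 GABAergic genes are all lower, 8 of 9 subthalamic and 8 of 12 dopamine neuron factors are higher, and 19 of 21 cell cycle genes are not called.

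Progenitor genes were mostly higher in GFP positive pools. Of 16 tested, 10 were higher and 2 lower (75% called, median log2 difference 1.16), and 8 of the 10 were called in every fit that leaves out 1 pool. Sox9, an HMG factor of radial glia, had 143.1 to 222 RPKM (median 179.6) among GFP positive pools, against 46.9 to 66.6 RPKM (median 51.2) among GFP negative pools (a log2 difference of 1.71 ± 0.13, adjusted p = 4.03e-07). Its lowest GFP positive pool was well above its highest GFP negative pool. Vim, vimentin, had 271 to 546 RPKM (median 451) among GFP positive pools, against 182 to 232 RPKM (median 194) among GFP negative pools (a log2 difference of 1.09 ± 0.15, adjusted p = 0.000158). Nes, nestin, had 10.2 to 25.4 RPKM (median 21.6) among GFP positive pools, against 3.17 to 8.14 RPKM (median 4.88) among GFP negative pools (a log2 difference of 1.74 ± 0.26, adjusted p = 0.000427). Hes5, a Notch target, had 338 to 613 RPKM (median 474) among GFP positive pools, against 210.4 to 411 RPKM (median 231) among GFP negative pools (a log2 difference of 0.86 ± 0.17, adjusted p = 0.00427). Hes1, another, had 19.6 to 62.6 RPKM (median 46.8) among GFP positive pools, against 4.11 to 19.3 RPKM (median 16.9) among GFP negative pools (a log2 difference of 1.62 ± 0.33, adjusted p = 0.00666). Hes5 overlapped between the classes and Hes1 did not. Of the Notch receptor genes, Notch1 had 56.7 to 89.8 RPKM (median 71.98) among GFP positive pools, against 19.9 to 45.6 RPKM (median 30.3) among GFP negative pools (a log2 difference of 1.19 ± 0.19, adjusted p = 0.000826). Notch2 had 8.14 to 11.9 RPKM (median 10.1) among GFP positive pools, against 0 to 1.399 RPKM (median 0.822) among GFP negative pools (a log2 difference of 2.68 ± 0.28, adjusted p = 1.64e-05). Neither overlapped. Prom1, a membrane protein of progenitors, had 25.8 to 53.7 RPKM (median 39.5) among GFP positive pools, against 11.7 to 22.5 RPKM (median 13.7) among GFP negative pools (a log2 difference of 1.30 ± 0.20, adjusted p = 0.000632). Pax6, a paired-box factor that the floor plate lacks, was lower, with 0.0609 to 3.12 RPKM (median 0.647) among GFP positive pools, against 5.39 to 44.3 RPKM (median 14.4) among GFP negative pools (a log2 difference of -3.18 ± 0.46, adjusted p = 0.000345). Sox1, an HMG factor of neural progenitors, was lower too, with 0 to 0.412 RPKM (median 0.105) among GFP positive pools, against 2.92 to 6.46 RPKM (median 3.86) among GFP negative pools (a log2 difference of -2.15 ± 0.29, adjusted p = 0.000158). Neither overlapped, but for Sox1, under 1 RPKM in every GFP positive pool, the filter fixed this in advance. Fabp7, a fatty acid binding protein of radial glia, was not called and overlapped widely, with 423 to 809 RPKM (median 653) among GFP positive pools, against 86.5 to 901 RPKM (median 217) among GFP negative pools (a log2 difference of 1.26 ± 0.44, adjusted p = 0.0991). It was called without GFP negative replicate 2 (adjusted p = 0.0118).

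Few cell cycle genes were called. Of 21 tested, 0 were higher and 2, the inhibitors Cdkn1a and Cdkn1c, were lower (9.52% called, against 6.86% of all genes). The median log2 difference was 0.60, above 0 like that of the progenitor genes. The missing calls do not show that the lists differed. Cdk1, the mitotic kinase, had 2.88 to 50.5 RPKM (median 31.4) among GFP positive pools, against 0.801 to 23.6 RPKM (median 14.4) among GFP negative pools (a log2 difference of 1.43 ± 0.70, adjusted p = 0.262). Mki67, the proliferation marker, had 2.35 to 7.37 RPKM (median 3.84) among GFP positive pools, against 0.145 to 4.08 RPKM (median 2.87) among GFP negative pools (a log2 difference of 0.91 ± 0.42, adjusted p = 0.228). In both the classes overlapped. Cdkn1a had 4.38 to 11.95 RPKM (median 10.53) among GFP positive pools, against 12.1 to 41.6 RPKM (median 33.3) among GFP negative pools (a log2 difference of -1.64 ± 0.32, adjusted p = 0.00416). Its classes did not overlap. Of 13 proneural genes and Notch ligands tested, 3 were higher and 1 lower (30.8% called, median -0.14). Of these 4, 1 was called in every fit that leaves out 1 pool. Neurod6, a helix-loop-helix factor of young neurons, had 38.4 to 76.6 RPKM (median 58.9) among GFP positive pools, against 6.47 to 39.4 RPKM (median 20.1) among GFP negative pools (a log2 difference of 1.78 ± 0.34, adjusted p = 0.00366). Dll3, a Notch ligand, was not called (a log2 difference of 0.94 ± 0.34, adjusted p = 0.117).

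Of 15 pan-neuronal genes tested, 1 was higher and 5 lower (40% called, median log2 difference -0.38). Tubb3, neuronal tubulin, was abundant and not called, with 1685 to 1883 RPKM (median 1820.4) among GFP positive pools, against 1657 to 2109 RPKM (median 1967) among GFP negative pools (a log2 difference of -0.09 ± 0.07, adjusted p = 0.464). Mapt, tau, was not called either (a log2 difference of 0.07 ± 0.10, adjusted p = 0.76). Ina, a neuronal filament gene, was lower, with 193 to 270.0 RPKM (median 206) among GFP positive pools, against 341 to 458 RPKM (median 422) among GFP negative pools (a log2 difference of -0.92 ± 0.10, adjusted p = 2.84e-05). Nefl, the light neurofilament, was lower too, with 24.1 to 53.9 RPKM (median 34.7) among GFP positive pools, against 55.6 to 104.8 RPKM (median 71.97) among GFP negative pools (a log2 difference of -1.15 ± 0.20, adjusted p = 0.00181). Neither overlapped. Map2, a dendritic microtubule protein, was the 1 higher gene, with 422 to 744 RPKM (median 612) among GFP positive pools, against 365 to 449 RPKM (median 416) among GFP negative pools (a log2 difference of 0.55 ± 0.12, adjusted p = 0.0088). Its call was lost without the variance trend (adjusted p = 0.0606).

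Wnt genes were called among ligands, modulators, receptors and effectors. Of 5 ligands tested, 3 were higher and 0 lower (60% called, median log2 difference 1.90). Wnt5a, a ligand that promotes dopamine differentiation, had 92.6 to 247 RPKM (median 153.2) among GFP positive pools, against 4.23 to 11.6 RPKM (median 7.40) among GFP negative pools (a log2 difference of 4.28 ± 0.26, adjusted p = 7.64e-08). Wnt7b had 12.8 to 45.4 RPKM (median 35.9) among GFP positive pools, against 1.33 to 19.2 RPKM (median 8.37) among GFP negative pools (a log2 difference of 1.90 ± 0.44, adjusted p = 0.0136), with overlap, and Wnt8b is given above. Wnt1, which marks the borders of the floor plate, was too low to be tested and had 0 to 11.99 RPKM (median 3.86) among GFP positive pools, against 0 to 0.552 RPKM (median 0) among GFP negative pools. Of 9 modulators, 1 (Rspo2) was higher and 1 lower (22.2% called, median 0.45). Of 17 receptors and transcriptional effectors, 3 were higher and 2 lower (29.4% called, median -0.12). The receptor Fzd10 had 4.36 to 8.22 RPKM (median 6.64) among GFP positive pools, against 0 to 0.494 RPKM (median 0) among GFP negative pools (a log2 difference of 2.73 ± 0.28, adjusted p = 1.25e-05). Fzd3, which guides axons, had 398 to 593 RPKM (median 449) among GFP positive pools, against 228 to 341 RPKM (median 307) among GFP negative pools (a log2 difference of 0.66 ± 0.11, adjusted p = 0.00173). Fzd10 was near 0 in GFP negative pools, whereas Fzd3 was abundant in both classes.

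Other signalling genes were called singly. Of 7 hedgehog genes, 1 was higher (14.3% called, median log2 difference 0.39). It was the ligand Shh itself, with 4.92 to 8.92 RPKM (median 7.80) among GFP positive pools, against 0 to 3.55 RPKM (median 0.213) among GFP negative pools (a log2 difference of 2.50 ± 0.37, adjusted p = 0.000382). Of 10 BMP ligands, antagonists and Id genes, 2 were higher and 1 lower (30% called, median 0.23). Bmp7 had 4.69 to 15.9 RPKM (median 10.8) among GFP positive pools, against 0 to 1.74 RPKM (median 1.03) among GFP negative pools (a log2 difference of 2.46 ± 0.35, adjusted p = 0.000322). Shh and Bmp7 were low in both classes and did not overlap. Id3, an inhibitor of helix-loop-helix factors, had 146.6 to 252 RPKM (median 194) among GFP positive pools, against 7.45 to 38.4 RPKM (median 27.5) among GFP negative pools (a log2 difference of 3.15 ± 0.34, adjusted p = 2.1e-05). In contrast, its relative Id4 was lower, with 6.32 to 16.5 RPKM (median 9.33) among GFP positive pools, against 23.6 to 39.999 RPKM (median 27.2) among GFP negative pools (a log2 difference of -1.39 ± 0.23, adjusted p = 0.00102). Of 12 trophic receptors and ligands, 4 were higher and 0 lower (33.3% called, median 0.09). Ret, the receptor kinase for GDNF, had 6.56 to 17.3 RPKM (median 9.83) among GFP positive pools, against 0.179 to 1.38 RPKM (median 0.898) among GFP negative pools (a log2 difference of 2.69 ± 0.31, adjusted p = 3.86e-05). Its co-receptor Gfra1 had 174.3 to 271 RPKM (median 217) among GFP positive pools, against 93.2 to 134.7 RPKM (median 103.8) among GFP negative pools (a log2 difference of 0.99 ± 0.12, adjusted p = 7.19e-05). Fgfr3, a fibroblast growth factor receptor, had 133.7 to 315 RPKM (median 196) among GFP positive pools, against 10.3 to 80.8 RPKM (median 46.03) among GFP negative pools (a log2 difference of 2.52 ± 0.43, adjusted p = 0.00136). None of these 3 receptors overlapped. The ligand gene Gdnf was too low to be tested.

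Axon guidance genes were called in both directions within each family. Of 13 netrin, Slit and Robo genes, 4 were higher and 1, Robo3, was lower (38.5% called, median log2 difference -0.11). Slit2, a repellent made by the floor plate, had 132.1 to 303 RPKM (median 238) among GFP positive pools, against 21.8 to 53.2 RPKM (median 34.2) among GFP negative pools (a log2 difference of 2.65 ± 0.24, adjusted p = 2.94e-06). Ntn1, netrin 1, had 28.2 to 44.8 RPKM (median 38.5) among GFP positive pools, against 4.46 to 17.2 RPKM (median 6.05) among GFP negative pools (a log2 difference of 2.21 ± 0.27, adjusted p = 7.03e-05). Of 15 Eph receptors and ephrins, 2 were higher and 6 lower (53.3% called, median -0.06). Epha3 was higher, with 18.2 to 39.9 RPKM (median 26.2) among GFP positive pools, against 5.45 to 9.98 RPKM (median 7.33) among GFP negative pools (a log2 difference of 1.76 ± 0.23, adjusted p = 0.000103). It did not overlap. Ephb1 was lower, with 10.01 to 17.6 RPKM (median 11.9) among GFP positive pools, against 29.8 to 46.6 RPKM (median 34.5) among GFP negative pools (a log2 difference of -1.48 ± 0.18, adjusted p = 6.2e-05). Epha7, another Eph receptor, was lower too, with 8.15 to 16.4 RPKM (median 11.6) among GFP positive pools, against 23.7 to 36.2 RPKM (median 28.2) among GFP negative pools (a log2 difference of -1.18 ± 0.19, adjusted p = 0.000848). Neither overlapped. The ligand gene Efna3 was lower as well (a log2 difference of -1.69 ± 0.41, adjusted p = 0.0181), with overlap. Of 12 semaphorins, neuropilins and plexins, 1 was higher and 1 lower (16.7% called, median -0.16). Nrp2, a semaphorin co-receptor, was higher, with 22.02 to 45.7 RPKM (median 41.3) among GFP positive pools, against 7.92 to 20.9 RPKM (median 14.2) among GFP negative pools (a log2 difference of 1.38 ± 0.23, adjusted p = 0.00128). Its paralogue Nrp1 was lower, with 5.17 to 10.8 RPKM (median 7.74) among GFP positive pools, against 13.8 to 24.1 RPKM (median 18.5) among GFP negative pools (a log2 difference of -1.19 ± 0.23, adjusted p = 0.00351). Neither overlapped.

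Of 21 neurotransmitter receptor genes, 2 were higher and 3 lower (23.8% called, median log2 difference -0.38). Chrna6, a nicotinic receptor subunit of dopamine neurons, had 5.05 to 42.01 RPKM (median 15.2) among GFP positive pools, against 0 to 1.36 RPKM (median 0) among GFP negative pools (a log2 difference of 3.58 ± 0.43, adjusted p = 6.14e-05). Chrnb3, its usual partner, was too low to be tested, with 0 to 23.4 RPKM (median 4.42) among GFP positive pools, against 0 to 0.0723 RPKM (median 0) among GFP negative pools. Chrnb2, a subunit of most neuronal nicotinic receptors, was not called (a log2 difference of 0.09 ± 0.13, adjusted p = 0.762). The kainate receptor Grik1 had 0 to 3.62 RPKM (median 0.954) among GFP positive pools, against 3.18 to 16.6 RPKM (median 9.26) among GFP negative pools (a log2 difference of -2.20 ± 0.41, adjusted p = 0.00296). Gabrb1, a GABA receptor subunit, had 0 to 1.90 RPKM (median 1.17) among GFP positive pools, against 2.23 to 9.81 RPKM (median 7.66) among GFP negative pools (a log2 difference of -1.88 ± 0.35, adjusted p = 0.00351). Of 20 ion channels, 2 were higher and 0 lower (10% called, median -0.25), and neither was called in every fit that leaves out 1 pool. Of 26 cadherins and adhesion genes, 1 was higher and 3 lower (15.4% called, median -0.31). Beside these shares stand the 6.86% called among all genes.

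Markers of blood, vessel and immune cells were highest in a few GFP negative pools. The summed RPKM of 9 red blood cell genes was 6.09 to 29.5 in GFP positive pools, 28.6 to 128.2 in 4 GFP negative pools, and 23246 and 20093 in the other 2, GFP negative replicates 3 and 5. Of 5 red blood cell genes tested, 1 was lower and 4 were not called (20% called, median log2 difference -3.36). Hba-a1, whose fold rests on the 2 pools, had 0 to 16.2 RPKM (median 7.505) among GFP positive pools, against 15.3 to 7342 RPKM (median 30.9) among GFP negative pools (a log2 difference of -5.29 ± 1.56, adjusted p = 0.0529). It was called without GFP negative replicate 4 (adjusted p = 0.0416). The 10 genes of microglia and macrophages summed to 0 to 8.67 RPKM in GFP positive pools, 0 to 13.04 in 5 GFP negative pools and 357.5 in GFP negative replicate 5, where C1qb was at 76.8 RPKM and Cx3cr1 at 49.6. The 8 endothelial genes summed to 3.98 to 9.57 RPKM in GFP positive pools, 0 to 6.21 in 5 GFP negative pools and 67.7 in GFP negative replicate 4. The 10 genes of mesenchyme and pericytes summed to at most 4.23 RPKM in a GFP positive pool and 6.13 in a GFP negative pool, and 0 of them were tested. Of 2 endothelial genes tested, 1 was higher (median 0.61). Kdr, a receptor of vascular growth factor, had 1.04 to 7.01 RPKM (median 4.69) among GFP positive pools, against 0 to 3.63 RPKM (median 0.0255) among GFP negative pools (a log2 difference of 1.83 ± 0.45, adjusted p = 0.0192). Its call was lost without both globin pools (adjusted p = 0.103). Kdr alone made up the endothelial sum of GFP positive replicates 1 and 2 (5.71 and 3.98 RPKM). In GFP negative replicate 4, which had the highest sum (67.7 RPKM), Kdr was at 3.63 RPKM. The call of Kdr therefore does not stand for the endothelial list. The part of these cells in the results was not tested beyond leaving out the 2 pools with globin. There the dopamine neuron, subthalamic and GABAergic lists had 8, 8 and 0 genes higher and 0, 1 and 16 lower.

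**Figure D5:**
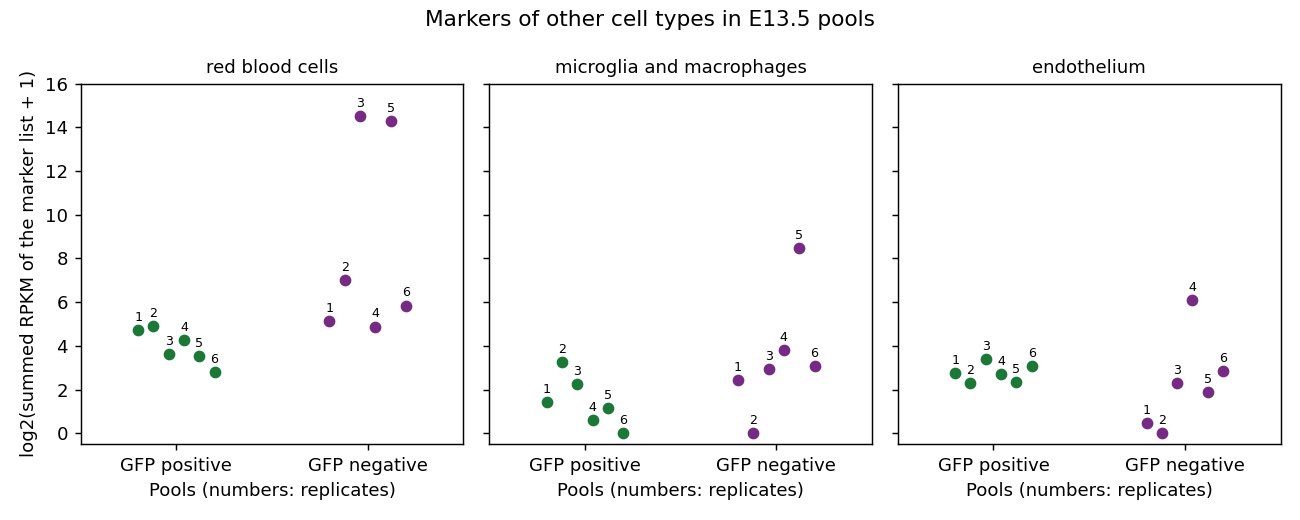
Summed RPKM of the marker lists of red blood cells (9 genes), microglia and macrophages (10 genes) and endothelium (8 genes), as log2(sum + 1), in each pool, with replicate numbers. GFP negative replicates 3 and 5 stand far above the rest for red blood cells (23246 and 20093 RPKM), replicate 5 for microglia (357.5 RPKM) and replicate 4 for endothelium (67.7 RPKM).

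Of 4 oligodendrocyte precursor and glial genes tested, 2 were lower and 0 higher (50% called, median log2 difference -1.48). Olig2, a helix-loop-helix factor of motor neuron and oligodendrocyte progenitors, had 0 to 0.561 RPKM (median 0.147) among GFP positive pools, against 6.58 to 15.9 RPKM (median 13.4) among GFP negative pools (a log2 difference of -3.43 ± 0.29, adjusted p = 1.51e-06). No GFP positive pool reached 1 RPKM of Olig2. None of 9 early response and heat shock genes was called (median 0.24), and none of 5 sex-linked genes was (median 0.54). The single microglial gene tested was not called.

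Single cells of the same stage, sequenced as separate libraries, show which of these genes occurred in the same cell as Lmx1a. Lmx1a reached an RPKM of at least 10 in 73 cells (50.3% of the cells, exact 95% Clopper-Pearson interval 41.9 to 58.7%). The labels name no embryo, so the cells count as 1 sample, intervals cover counting error only, and no test was made. Pitx3 was present in 25 cells, of which 18 had Lmx1a (72%, 50.6 to 87.9%). Barhl1 was present in 50 cells, of which 35 had Lmx1a (70%, 55.4 to 82.1%). Pitx3 and Barhl1 were found together in 2 cells. Nr4a2 was present in 62 cells, 46 with Lmx1a (74.2%, 61.5 to 84.5%), 25 with Pitx3 and 23 with Barhl1. Th was present in 21 cells, 15 with Lmx1a (71.4%, 47.8 to 88.7%), 17 with Pitx3 and 0 with Barhl1.

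Of the genes lower in GFP positive pools, Gad2, Tcf7l2 and Gata3 are given with their intervals. Gad2 was present in 19 cells, 5 of them with Lmx1a (26.3%, 9.15 to 51.2%), and Tcf7l2 in 31 cells, 9 with Lmx1a (29.03%, 14.2 to 48.04%). The share of Tcf7l2 cells with Lmx1a was 48.7% when presence of both genes required an RPKM of 1. Gata3 was present in 10 cells, 2 with Lmx1a (20%, 2.52 to 55.6%). Further lower genes were Gad1, with Lmx1a in 3 of its 13 cells, Dlx1, in 1 of 6, Sst, in 2 of 3, and Cartpt, in 1 of 1. With so few cells the intervals are wide, and the difference from the shares of Pitx3 and Barhl1 was not tested. Of genes higher in GFP positive pools, Rspo2 was present in 27 cells, 22 with Lmx1a (81.5%, 61.9 to 93.7%), the largest such share. The remaining higher genes looked at had smaller shares than Pitx3 and Barhl1. These ran from 55.6% for Slc6a3 (5 of 9 cells, 21.2 to 86.3%) to 67.6% for Foxa2 (25 of 37 cells). Foxp2 had 59.6% (59 of 99 cells) and Wnt5a 61.5% (32 of 52 cells). Lmx1a was present in 50.3% of all cells. Fev was present in 0 cells, which allows up to 2.07% of cells to have it at this level (3 cells over the total). This limits cells with Fev detected and not cells that express it. Every GFP negative pool had it.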

How the data were processed

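Pools of 100 cells from E13.5 ventral midbrain, 6 GFP positive and 6 GFP negative, were compared by their labelled class. The authors deposited RPKM per gene for pools and, for single cells, log2 values, formed by the authors as log2(RPKM + 0.001), as the lowest value shows; these were turned back into RPKM. Per the submitters' processing notes, reads were aligned with STAR 2.3.0 to mm10. No source used here gives the read counter, annotation or filters.

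A gene was tested when 6 or more of the 12 pools had it at an RPKM of 1 or above, on log2(RPKM + 1) with limma 3.58.1 in R 4.3.3 (moderated variances with a trend, Benjamini-Hochberg adjustment over 13674 genes), and called at an adjusted p under 0.05. EGFP was compared with a two-sided exact permutation test in R 4.3.3. The Clopper-Pearson intervals of single cells were computed in scipy 1.17.1. On simulated data for this comparison with 13674 genes, 56 of 100 genes changed 2-fold and 94 of 100 changed 4-fold were recovered, with 4 false calls among 154. The changed genes were drawn only from those above a minimum mean level, and the changes were set on the log2(RPKM + 1) scale. Recovery among lower genes was not measured. Depth was estimated from the step between low RPKM values, which fixes relative depth but leaves a factor of 2 in the absolute one. Intervals and detection cover counting error only, since reads carry no molecular identifiers.

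The 25 genes named in each direction were those called with the largest differences, a mean of at least 10 RPKM in the higher class, and no overlap of values; list members are examples. The members and lists were chosen with earlier results of these data known. Gene coordinates are from GENCODE M21 (GRCm38), the build the notes name, and promoters from RefSeq GRCm38.p6. Alternatives were other pseudocounts, filters, scalings and variance models, a fit with the E10.5 pools, and leaving out each pool; leaving out the 2 pools with globin was chosen after seeing the data. Some genes are not reported here, and the list counts leave them out.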

Additional observations from a re-analysis of the deposited data

Results flagged for a closer look

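With 6 pools a class, 44 of 272 values tested had 1 pool far from the other 5 of its class by Dixon's criterion, where chance flags about 1 in 20 groups of normally distributed values. Where 5 pools of a class were at 0, any value above 0 meets the criterion, so the share flagged is no measure of an excess. No explanation for them was tested. The values are RPKM, with the nearest other pool of the class given where it helps.

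GFP positive replicate 5 held 9 of these values, all high and all in genes that were lower in GFP positive pools. They were Dlx1 at 12.48 (the next pool at 2.47), Fezf2 at 5.41 (0.151), Robo3 at 8.35 (1.03), Dlx2 at 3.47 (0.308), Sim1 at 4.06 (0.469), Tal2 at 4.37 (1.14), Foxb1 at 8.55 (3.06), Lhx2 at 0.902 (0.245) and Lhx9 at 2.47 (0.794).

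GFP positive replicate 1 was high in EGFP at 80.3, Bfsp2 at 50.9 and Pax8 at 6.25 and low in Nrp2 at 22.02. GFP positive replicate 2 was high in Corin at 49.6, Sox14 at 5.65 and Six3 at 1.70 and low in Calb2 at 61.4. GFP positive replicate 3 was high in Gchfr at 2.02 and Chrnb3 at 23.4, and GFP positive replicate 4 in Sst at 29.8, Slc18a2 at 84.9 and Tph2 at 2.28. GFP positive replicate 6 was high in Tal1 at 2.05.

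GFP negative replicate 4 held 7 values, all high, of which Slc6a4 was at 40.6 (the next pool at 8.94), Kdr at 3.63, Slc6a3 at 1.19, Syt10 at 3.11, Fzd10 at 0.494, Aldh1a1 at 0.172 and Chrnb3 at 0.0723. GFP negative replicate 5, the shallowest pool, was high in C1qb at 76.8 and Cx3cr1 at 49.6, genes of microglia, and in Calb2 at 45.1, Slc35d3 at 3.34, Corin at 0.400 and Mapt at 796.5. GFP negative replicate 2 was high in Gm15055 at 11.7 and Shh at 3.55, and GFP negative replicate 3 in Msx1 at 0.638 and Hes5 at 410.9. GFP negative replicate 6 was high in Gad1 at 63.1, Epha8 at 5.59 and Pax8 at 25.3 and low in Isl1 at 11.2.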

How the results depend on the processing

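Leaving out 1 pool at a time gave 353 to 452 genes higher and 359 to 496 lower in GFP positive pools, a log2 difference of Lmx1a of 3.83 to 4.18 and an EGFP difference of 56.6 to 62.5 RPKM. The other planned settings (pseudocount, filter, scaling, variance model and the fit of 24 pools) gave 342 to 556 genes higher and 351 to 592 lower; in the fit of 24 pools, 390 of the genes called higher and 428 of those called lower were called again. Without both GFP negative pools that hold globin, a setting chosen after seeing the data, 271 genes were lower, in a fit with fewer samples. The median log2 difference of all genes lay between -0.04 and 0.00 over the settings, so no scaling shifted it by 0.1. In single cells, the share of Barhl1 cells with Lmx1a was 51.02% and that of Nr4a2 cells 60.7% when presence required an RPKM of 30. For Tcf7l2 cells it was 48.7% when presence required an RPKM of 1. The cause was not tested. Lmx1a was held to the same level as the other gene. These shares are therefore not to be set against the 50.3% of all cells with Lmx1a, counted at an RPKM of 10. No paired analysis was possible because the labels give the pools no replicate numbers shared between the classes. The absolute depth is known only to a factor of 2, which limits statements on genes listed at 0 to these libraries.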

Other observations

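Mitochondrial genes were looked at after their values were seen. Of 7 mitochondrial protein genes tested, 5 were lower in GFP positive pools and 0 higher, with a median log2 difference of -0.38. mt-Cytb, cytochrome b of the respiratory chain, had 4107 to 5073 RPKM (median 4504) among GFP positive pools, against 5521 to 6618 RPKM (median 5968) among GFP negative pools (a log2 difference of -0.43 ± 0.07, adjusted p = 0.000698, limma). mt-Nd1, a subunit of respiratory complex I, had 3792 to 4581 RPKM (median 4272) among GFP positive pools, against 5004 to 6059.8 RPKM (median 5473) among GFP negative pools (a log2 difference of -0.38 ± 0.06, adjusted p = 0.00149, limma). In both the classes did not overlap. After quantile normalization 1 of the 7 was higher and 0 were lower, and without the variance trend 0 were called in either direction, with the same median. The calls therefore depend on the scaling and on the variance model. The median stayed below 0 after quantile normalization (-0.09), and rescaling by the median ratio left 5 lower and 0 higher. Without GFP positive replicate 2, or without GFP negative replicate 6, 1 was higher and 5 were lower.

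mt-Rnr2, the large ribosomal RNA of the mitochondrion, was the most abundant entry of the table, with 53580.4 to 90541 RPKM (median 73141) among GFP positive pools, against 40285 to 65317 RPKM (median 53521) among GFP negative pools (a log2 difference of 0.47 ± 0.12, adjusted p = 0.0289, limma). The small one, mt-Rnr1, was lower, with 323 to 433 RPKM (median 372) among GFP positive pools, against 447 to 606 RPKM (median 484) among GFP negative pools (a log2 difference of -0.44 ± 0.10, adjusted p = 0.00954, limma). The 2 ribosomal RNAs differed in opposite directions, except that after quantile normalization the difference of mt-Rnr2 was 0. That setting gives the top entry of every pool the same value, so this 0 was fixed in advance. The call of mt-Rnr2 was lost in 7 of the 12 fits that leave out 1 pool (without GFP positive replicate 3, 4 or 6 or GFP negative replicate 1, 2, 3 or 4, adjusted p from limma 0.0505 to 0.0697). It was also lost with no filter on low values (adjusted p = 0.258, limma) and with no variance trend (adjusted p = 0.134, limma). The call of mt-Rnr1 was lost with no variance trend (adjusted p = 0.0797, limma).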
